A study of Rattus norvegicus with 25 samples.

Results

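The genes described here are 10 markers of the inhibitory interneurons of the hippocampus, taken by name from a table of 34322 rat genes: Gad1, Gad2, Slc32a1, Pvalb, Calb2, Sst, Vip, Cck, Npy and Reln. All 10 were in the table and all 10 were among the 21064 genes with enough counts to be tested. Messenger RNA of the hippocampus was sequenced in 25 libraries that form 5 groups of 5, and the rats were adult Sprague-Dawley males, 6 to 7 weeks old. Vehicle-sham rats had a sham procedure and vehicle, and Vehicle-CCI rats had a controlled cortical impact, a mechanical brain injury abbreviated CCI, and vehicle. The 3 other groups also had the impact and received a thymus supplement: thymus in TD-CCI, thymus cytosolic factor in TCF-CCI and thymus nuclear factor in TNF-CCI, where TNF does not stand for the cytokine. No sham group received a supplement, so in those 3 groups injury and supplement cannot be told apart when they are set against sham. The labels used here give no dose, no time after injury and no side of the hippocampus, and they do not say that each library is a separate animal, so p-values measure only the spread between these libraries.

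Interneurons are a small share of hippocampal neurons that release GABA and restrain the pyramidal and granule cells around them. They are sorted into classes by the calcium-binding proteins and peptides they contain, and fast-spiking parvalbumin basket cells, somatostatin cells of the stratum oriens and dentate hilus, cholecystokinin basket cells and VIP cells that contact other interneurons are the classes best known. Loss of hilar interneurons and changes of inhibition are well known after experimental brain injury. None of the markers is wholly particular to interneurons: Cck is also made by pyramidal cells, Gad1 and Npy by dentate granule cells under strong activity, and Calb2, Gad2 and Slc32a1 by neurons of neighbouring brain regions. The libraries are of whole tissue, so fewer cells of a class and less RNA per cell cannot be told apart.

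The libraries held between 27290179 and 44899467 counts. Levels are given as CPM, counts scaled to a common library total, after scaling by edgeR's trimmed mean of M values (TMM), and counting error is small beside the spread between libraries, since the lowest count of any member in any library was 131. Mitochondrial ribosomal RNA took 2.18 to 10.9% of the counts of 23 libraries, 25.6% of those of Vehicle-sham 2 and 17.3% of those of Vehicle-sham 3, and those 2 sham libraries stand apart. A further 3 libraries, all injured, stand apart in members: TD-CCI 4, TD-CCI 5 and TNF-CCI 1. Member results that rest on any of these 5 are given with and without them, and list results are given again without Vehicle-sham 2. Markers of activated microglia and reactive astrocytes passed the test upward in 8 of 8 genes when the mean of the 4 CCI groups was set against sham. Over all genes, 472 of 21064 passed upward. The summed level of the 8 was 854 to 1818 CPM in sham and 871 to 8681 CPM in the CCI libraries. Most of that sum was the astrocyte gene Gfap, at 743 to 1714 CPM in sham and 788 to 7938 CPM in the CCI libraries.

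Promoters are shown for the member that passed a test, Pvalb, for the member with the widest range between libraries, Npy, and for Sst, whose promoter is the textbook site of the cAMP response element. Each stretch runs 5′ to 3′ on the gene's strand from 250 bases before to 30 bases after the start annotated by RefSeq on GRCr8, at chr7:111666260-111666539 on the minus strand for Pvalb, chr4:80211861-80212140 on the plus strand for Npy and chr11:90461296-90461575 on the plus strand for Sst. Capitals mark the cAMP response element TGACGTCA, its shorter form TGACG, which lies within it, or the TATA box TATAAA, on either strand. The Npy stretch holds none of them. In the Sst stretch the element begins just after the annotated start and not before it.
Pvalb: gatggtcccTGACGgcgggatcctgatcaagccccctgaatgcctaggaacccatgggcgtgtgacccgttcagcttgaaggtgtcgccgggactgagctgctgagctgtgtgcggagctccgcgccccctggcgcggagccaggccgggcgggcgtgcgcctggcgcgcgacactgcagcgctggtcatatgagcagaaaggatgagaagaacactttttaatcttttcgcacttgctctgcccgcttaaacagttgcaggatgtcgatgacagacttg
Npy: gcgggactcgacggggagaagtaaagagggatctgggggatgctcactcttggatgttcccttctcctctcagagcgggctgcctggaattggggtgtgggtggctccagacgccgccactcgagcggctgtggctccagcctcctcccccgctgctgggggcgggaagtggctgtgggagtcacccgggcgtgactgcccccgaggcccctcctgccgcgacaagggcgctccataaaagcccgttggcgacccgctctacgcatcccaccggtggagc
Sst: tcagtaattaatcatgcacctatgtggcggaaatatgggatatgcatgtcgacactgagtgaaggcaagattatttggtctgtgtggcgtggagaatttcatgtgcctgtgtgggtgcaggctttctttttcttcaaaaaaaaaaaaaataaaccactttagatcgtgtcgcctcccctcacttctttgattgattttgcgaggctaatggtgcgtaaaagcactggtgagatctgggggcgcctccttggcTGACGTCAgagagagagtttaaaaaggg

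Over the full windows of 300 bases, 8 of the 10 members had a promoter in the RefSeq table. The full element TGACGTCA was found in 1 of the 8, Sst, and in 1.83% of 33469 promoters of the same length. The shorter form TGACG was in 4 of the 8 members against 21.2% of all promoters, and TATAAA was in 2 of the 8, Gad1 and Vip, against 14.2%. A match of letters describes the sequence and shows no binding. Cck and Calb2 had no entry.

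The genes lie on 8 chromosomes of mRatBN7.2, the build named in the submitters' processing notes. Gad1 (3:55369704-55410335) and Slc32a1 (3:147267373-147271842) are on chromosome 3, and Npy (4:78881294-78888495) and Reln (4:12736177-13162956) on chromosome 4, all on the plus strand. Gad2 (17:84763630-84826155), Sst (11:76956896-76958173) and Vip (1:42064878-42073219) are also on the plus strand, while Pvalb (7:109772939-109787954), Cck (8:121153499-121160194) and Calb2 (19:38114435-38141438) are on the minus strand. Counts were taken over exons, and no member shares exonic bases with another gene. The exons sum to 567 bases in Npy and 15366 bases in Reln, so levels are compared between genes only per kilobase of exon.

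Per kilobase, the sham hippocampus held more Cck mRNA than any other member, at 133 ± 33.7 CPM per kilobase (SD, n = 5). Pvalb at 33.0 ± 11.5, Npy at 26.3 ± 10.0, Gad1 at 25.5 ± 10.1 and Sst at 24.7 ± 5.80 CPM per kilobase followed, and neighbours in that order differed by less than their SD. Gad2 at 7.10 ± 2.86, Vip at 6.52 ± 2.03, Calb2 at 6.24 ± 2.12 and Slc32a1 at 5.10 ± 1.63 CPM per kilobase formed a lower band whose neighbours also differed by less than their SD. Reln was lowest, at 2.27 ± 0.440 CPM per kilobase. Cck was first and Reln last in each of the 4 CCI groups too, with Cck at 89.4 to 109 and Reln at 1.89 to 2.81 CPM per kilobase.

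**Figure D1:**
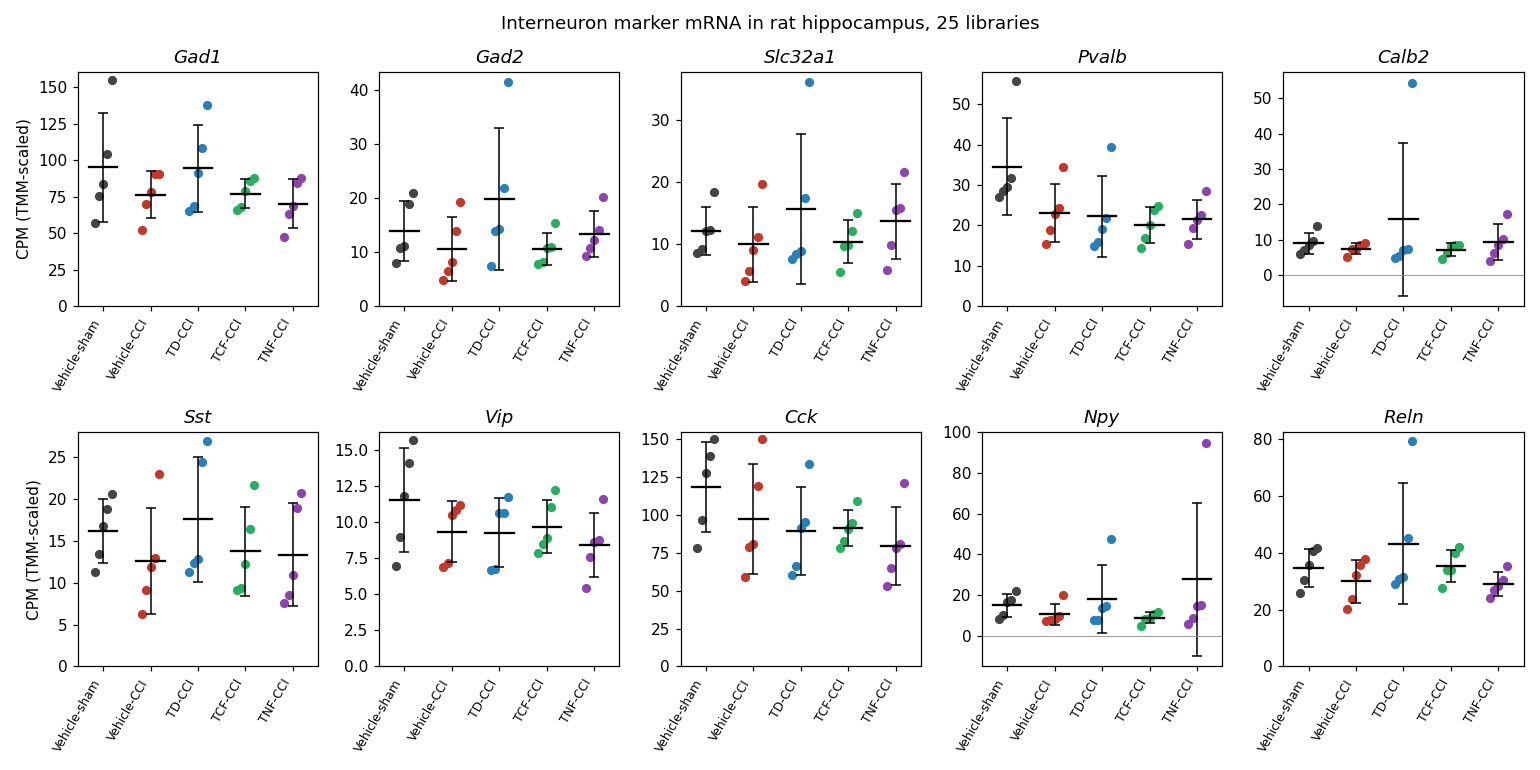
Level of each of the 10 markers in CPM (TMM-scaled, linear axes) in the 25 libraries, by group; points are libraries, the thick bar is the group mean and the error bar its SD (n = 5). In the Pvalb panel the 5 sham libraries lie between 27.1 and 55.8 CPM and 17 of the 20 CCI libraries lie below all of them, while single libraries stand far above their groups for Npy (94.8 and 47.4 CPM) and Calb2 (54.5 CPM).

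The first comparison asks what the injury, with or without a supplement, did to these markers, and sets the mean of the 4 CCI groups against sham. Of the 10 members, 1 fell, 0 rose and 9 did not pass the test (edgeR quasi-likelihood test, Benjamini-Hochberg adjusted p below 0.05 over 21064 genes). Of all genes tested, 5.92% passed in either direction and 3.68% passed as lower, so 1 of 10 is close to the background and says nothing particular of the list. The median log2 fold change of the 10 was -0.14 beside 0.01 over all genes tested, with 8 of 10 below 0 against 48.8% of all genes.

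Pvalb, the calcium buffer of fast-spiking basket and axo-axonic cells, was the member that fell. Its sham libraries held 29.4, 55.8, 31.7, 27.1 and 28.6 CPM, and those of Vehicle-CCI 15.4, 22.8, 18.9, 34.4 and 24.2 CPM. The TD-CCI libraries held 15, 21.8, 15.9, 39.5 and 19.1 CPM, and those of TCF-CCI 14.3, 23.9, 16.9, 24.7 and 20.2 CPM. In TNF-CCI the values were 15.5, 22.6, 19.3, 28.5 and 21.4 CPM. Thus 17 of 20 CCI libraries were below every sham library, and the 3 that overlapped sham were Vehicle-CCI 4, TD-CCI 4 and TNF-CCI 4. Vehicle-sham 2 stood far above the other sham libraries, which sat within a narrow band. Its raw Pvalb count was 980, beside 831 to 971 in the other sham libraries. Its TMM factor was 0.645, against 0.805 to 1.10 in the other libraries, and a lower factor gives a higher CPM. The part of this scaling in its Pvalb level was not tested.

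The mean level of Pvalb was 34.5 ± 12.0 CPM in sham (SD, n = 5) and 21.7 ± 6.50 CPM over the CCI libraries (n = 20). The log2 fold change was -0.67 ± 0.20 (SE, with a 95% interval of -1.07 to -0.27 and an edgeR adjusted p = 0.0440), and 19 of 20 CCI libraries were below the sham mean. All sham libraries other than Vehicle-sham 2 were below that mean too. The call depended on single libraries: without Vehicle-sham 2, the library with 25.6% mitochondrial ribosomal RNA, the log2 fold change was -0.40 (edgeR adjusted p = 0.346), and without Vehicle-sham 2 and 3 it was -0.37 (edgeR adjusted p = 0.447). With the mitochondrial ribosomal RNA share as a covariate it was -0.47 (edgeR adjusted p = 0.221). It was also lost on leaving out Vehicle-sham 3 (edgeR adjusted p = 0.0646) or any 1 of 12 CCI libraries (adjusted p = 0.0514 to 0.0627), which were replicates 1, 2 and 5 of Vehicle-CCI and replicates 1, 3 and 5 of the 3 supplement groups. The direction stayed the same in every setting run, as the plot of Pvalb under each alternative shows.

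**Figure D2:**
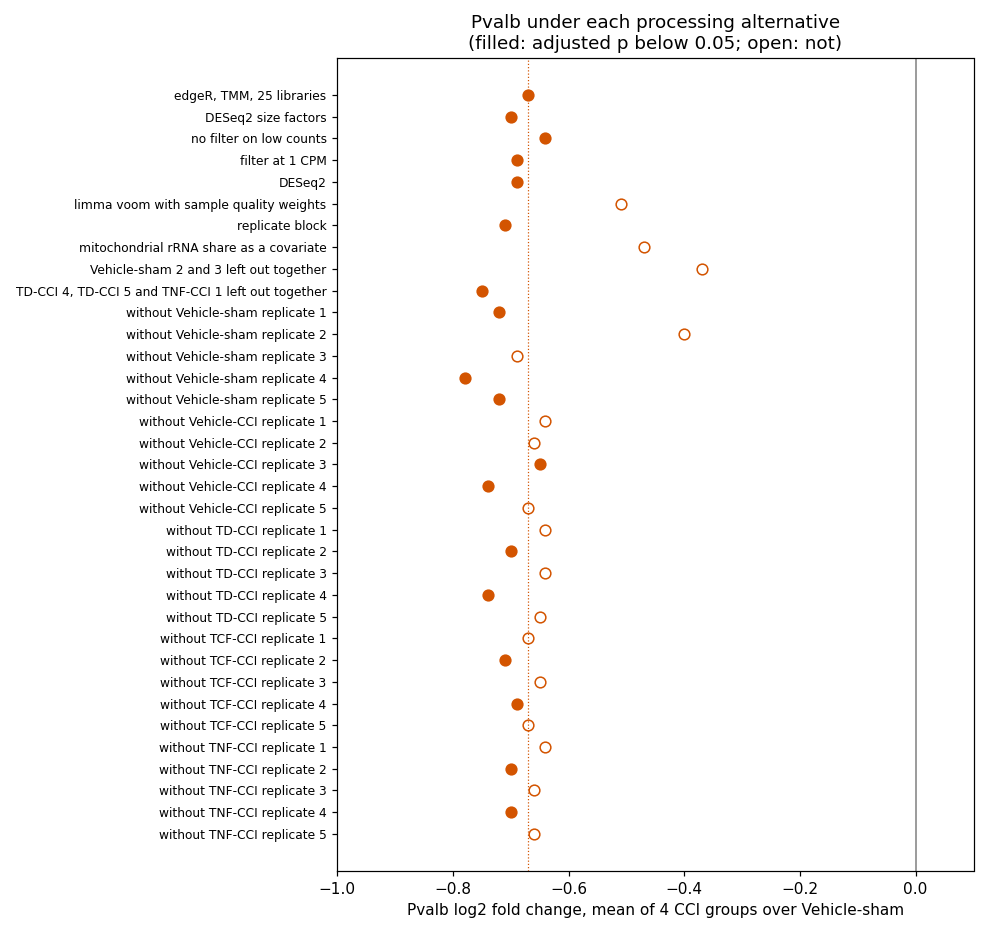
Log2 fold change of Pvalb, mean of the 4 CCI groups over Vehicle-sham, under each processing alternative (rows); filled points have an adjusted p below 0.05, open points do not, and the dotted line marks -0.67. All points lie left of 0, between -0.78 and -0.37, and those without Vehicle-sham 2 lie nearest to 0.

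Among the other markers the interval of the difference bounds what was missed. Cck, the peptide of a second class of basket cells and of many pyramidal cells, had the next smallest p: it was 118 ± 30 CPM in sham and 89.4 ± 25.7 CPM over the CCI libraries, a log2 difference of -0.41 ± 0.19 (SE; 95% interval -0.80 to -0.02; edgeR adjusted p = 0.185). Vip, the peptide of cells that inhibit other interneurons, was 11.5 ± 3.58 and 9.17 ± 2.04 CPM, a log2 difference of -0.32 ± 0.18 (edgeR adjusted p = 0.270). Sst, the peptide of dendrite-targeting cells, was 16.2 ± 3.81 and 14.4 ± 6.17 CPM (-0.19 ± 0.27 in log2; edgeR adjusted p = 0.701). The groups overlapped for all 3 peptides, with 6, 4 and 8 of 20 CCI libraries below every sham library in the order given.

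Npy, a peptide that damps excitatory transmission, was 14.9 ± 5.68 CPM in sham and 16.2 ± 20.6 CPM over the CCI libraries, and the SD of the CCI value exceeds its mean because of 2 libraries described further on. Its log2 difference was -0.04 ± 0.46 with an interval from -0.99 to 0.92. Reln, the secreted guidance glycoprotein of adult neurogliaform and oriens cells, was 34.8 ± 6.77 and 34.4 ± 12.4 CPM, a log2 difference of -0.03 ± 0.18 whose interval of -0.41 to 0.34 is among the narrowest of the 10. Calb2, or calretinin, the calcium-binding protein of interneuron-selective cells, was 8.98 ± 3.04 and 9.96 ± 10.9 CPM (0.08 ± 0.40 in log2, interval -0.75 to 0.90). The intervals for Npy and Calb2 are the widest of the 10, so differences up to their bounds are not excluded.

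**Figure D3:**
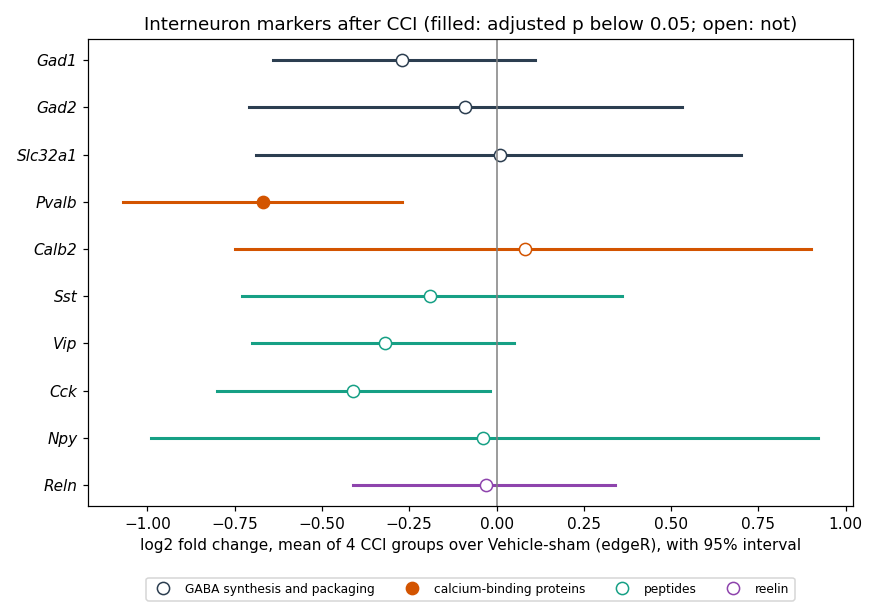
Log2 fold change of each marker, mean of the 4 CCI groups over Vehicle-sham (edgeR), with its 95% interval, in colours by role. Pvalb, the filled point, is the 1 member past the test, and the intervals of the other members apart from Cck include 0.

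The genes of GABA synthesis and packaging, which all GABA-releasing interneurons need, showed no call. Gad1 encodes the glutamate decarboxylase that makes most GABA, Gad2 the synaptic form of the enzyme, and Slc32a1 the transporter that loads GABA into vesicles. The log2 difference of CCI from sham was -0.27 ± 0.18 for Gad1 (edgeR adjusted p = 0.385), -0.09 ± 0.30 for Gad2 (adjusted p = 0.886) and 0.01 ± 0.34 for Slc32a1 (adjusted p = 0.992). Without Vehicle-sham 2 and 3 together the value for Gad1 turned to 0.15 and that for Slc32a1 to -0.21, so neither has a settled direction.

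Gad1 departed from the other two from library to library. Gad1 in sham was 57.2, 155, 104, 83.5 and 75.4 CPM, whereas Gad2 in the same libraries was 19, 10.7, 8.08, 11.2 and 20.9 CPM and Slc32a1 12.3, 8.65, 9.17, 12.2 and 18.4 CPM. Vehicle-sham 2 was thus the highest of the 25 libraries for Gad1 and among the lower sham libraries for Gad2 and Slc32a1. The log2 ratio of Gad2 to Gad1 ran from -3.86 in Vehicle-sham 2 and -3.68 in Vehicle-sham 3, the lowest of the 25, to -1.59 in Vehicle-sham 1, the highest. The sham group therefore spanned the whole range of this ratio, and its SD was 1.03 beside 0.62 over the CCI libraries. The 2 libraries of lowest ratio are those of highest mitochondrial ribosomal RNA share, 25.6 and 17.3%, and the part of that share in the ratio was not tested.

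**Figure D4:**
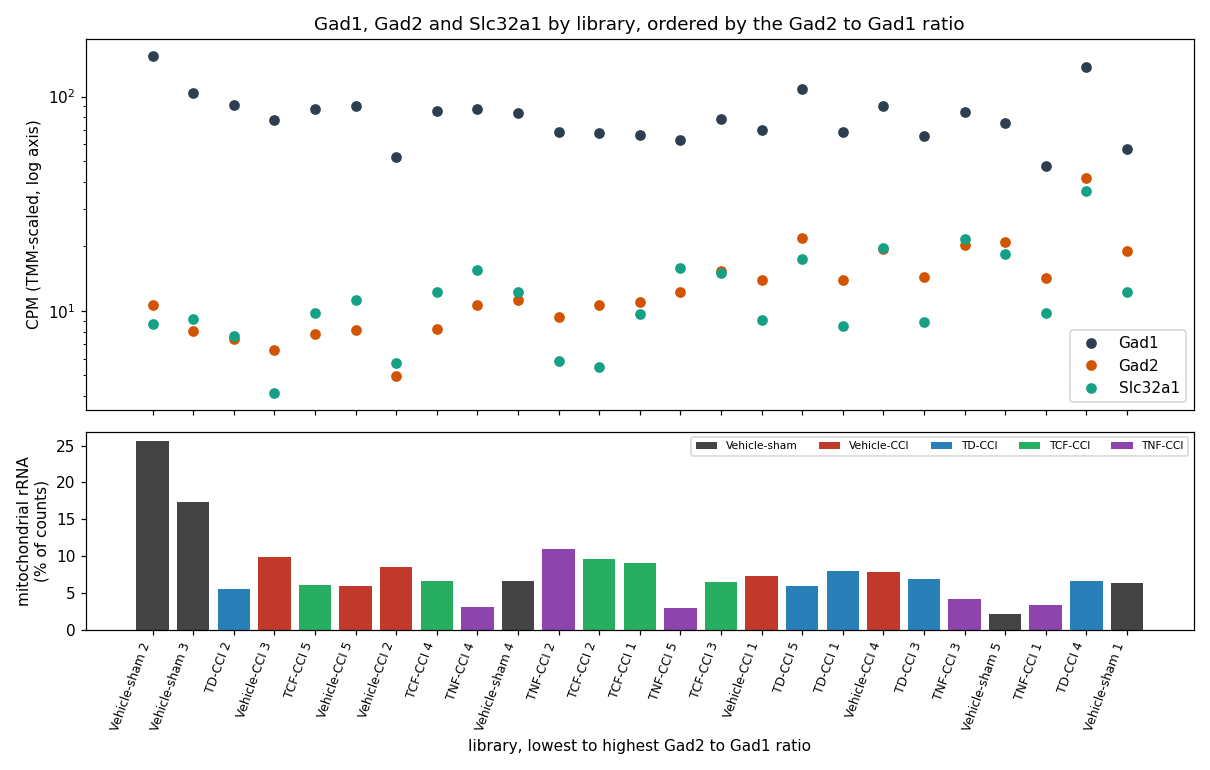
Upper panel, Gad1, Gad2 and Slc32a1 in CPM (log axis) in each library, ordered by the Gad2 to Gad1 ratio; lower panel, the share of counts on mitochondrial ribosomal RNA in the same libraries, coloured by group. Gad2 runs from 4.95 to 41.6 CPM while Gad1 runs from 47.6 to 155 CPM, and Vehicle-sham 2 at the left end joins the highest Gad1 with a Gad2 of 10.7 CPM.

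A ratio of 2 genes of the same library does not depend on how libraries are scaled, so each member was also set against Gad1. The log2 ratio of Pvalb to Gad1 was -1.43 ± 0.29 in sham (SD, n = 5; -1.71 to -0.96) and -1.88 ± 0.34 over the CCI libraries (n = 20; -2.50 to -1.20). It was lower after CCI by -0.45 ± 0.18 (SE; limma adjusted p = 0.302 over 21063 genes), with 13 of 20 CCI libraries below every sham library, and this difference did not pass. Of the 9 other members, 0 passed, and 1, Pvalb, had an unadjusted p below 0.05. Of all genes, 0% passed against Gad1, with 2748 at an unadjusted p below 0.05, so this test made no call at all.

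Set against Slc17a7, the vesicular glutamate transporter of hippocampal excitatory neurons, 0 of 10 members passed and none had an unadjusted p below 0.05, while 29.9% of all genes passed, nearly all as higher (limma). The median log2 difference of the 10 members was 0.17 beside 0.44 over all genes. Slc17a7 itself was at -0.41 ± 0.17 (edgeR adjusted p = 0.133). The ratio of Pvalb to Slc17a7 differed by -0.26 ± 0.25 (limma adjusted p = 0.440) and turned to 0.23 without Vehicle-sham 2 and 3. Without those 2 libraries, 2 members passed as higher against Slc17a7, Gad1 by 0.79 ± 0.22 (limma adjusted p = 0.0179) and Reln by 0.79 ± 0.24 (limma adjusted p = 0.0214). The share of all genes that passed in that setting was not counted. With all libraries it was already 29.9%, so these 2 calls are not read as particular to Gad1 and Reln.

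Each CCI group was next set against the same 5 sham libraries, so the 4 comparisons that follow share their reference and are given side by side. The number of members past the test was 0 of 10 in each, by edgeR, by DESeq2 and by limma voom. The background was 0% of genes for Vehicle-CCI, 0% for TD-CCI, 0.0142% for TCF-CCI and 2.57% for TNF-CCI with edgeR. DESeq2 called 254, 250, 255 and 1444 genes and limma voom 0, 2, 388 and 969 genes in the same order. At an unadjusted p below 0.05 edgeR had 1, 1, 1 and 2 members, and 2669, 3474, 3788 and 4215 genes.

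Pvalb was the member with the smallest p in all 4 groups. Its log2 fold change was -0.57 ± 0.26 in Vehicle-CCI (edgeR adjusted p = 0.358), -0.63 ± 0.26 in TD-CCI (adjusted p = 0.236), -0.78 ± 0.26 in TCF-CCI (adjusted p = 0.168) and -0.68 ± 0.26 in TNF-CCI (adjusted p = 0.132). In TCF-CCI all 5 libraries were below every sham library, and in the other 3 groups 4 of 5 were. In the authors' deposited tables of the same comparisons, Pvalb had a log2 fold change of -0.58, -0.65, -0.79 and -0.70 and an adjusted p of 0.528, 0.335, 0.0744 and 0.130 in that order. The second member with an unadjusted p below 0.05 was Cck in TNF-CCI, at 53.1, 78.2, 81.2, 121 and 65.3 CPM beside 78.5, 139, 96.7, 128 and 150 CPM in sham (-0.57 ± 0.25 in log2; edgeR adjusted p = 0.193). Below 0 were 10 of 10 members in Vehicle-CCI, 4 in TD-CCI, 9 in TCF-CCI and 7 in TNF-CCI, and none passed. Their median log2 fold changes were -0.31, 0.19, -0.31 and -0.27 in that order, beside 0.00 to 0.01 over all genes. Of all genes, 48.4 to 49.6% were below 0. In Vehicle-CCI all 9 pan-neuronal and all 9 excitatory neuron genes of the lists described further on were below 0 too.

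Whether a supplement changed a marker among injured rats was asked by setting each supplement group against Vehicle-CCI. In each of the 3 comparisons 0 of 10 members and 0% of genes passed by edgeR; DESeq2 called 0 members and 1, 0 and 1 genes for TD-CCI, TCF-CCI and TNF-CCI, and limma voom called 0 members and 0 genes. The members with an unadjusted edgeR p below 0.05 were 3 in TD-CCI, 0 in TCF-CCI and 1 in TNF-CCI, among 368, 304 and 729 genes. The 95% intervals for Pvalb against Vehicle-CCI were -0.59 to 0.47 for TD-CCI, -0.74 to 0.32 for TCF-CCI and -0.64 to 0.42 for TNF-CCI, so differences up to those bounds are not excluded.

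The 3 members in TD-CCI were Gad2, Calb2 and Reln, and the size of each rests on TD-CCI 4. Gad2 was 14.0, 7.41, 14.4, 41.6 and 22 CPM in TD-CCI and 14.0, 4.95, 6.58, 19.4 and 8.12 CPM in Vehicle-CCI (0.91 ± 0.39 in log2; unadjusted p = 0.0269 and adjusted p = 1.00 by edgeR). Calb2 was 4.84, 7.34, 5.32, 54.5 and 7.2 CPM beside 7.45, 4.98, 7.24, 9.21 and 8.61 CPM (1.08 ± 0.51 in log2; unadjusted p = 0.0426 by edgeR). The other 4 TD-CCI libraries lay within the Vehicle-CCI range for Calb2 or just under it, and the difference turned to -0.28 without TD-CCI 4. Reln was 31.5, 30.8, 28.9, 79.6 and 45.4 CPM beside 23.6, 20.3, 32.3, 37.8 and 35.9 CPM (0.53 ± 0.23 in log2; unadjusted p = 0.0308 by edgeR). Without TD-CCI 4 the values for Gad2 and Reln were 0.45 and 0.19.

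TD-CCI 4 was the highest of the 25 libraries for 4 members, Gad2 at 41.6, Slc32a1 at 36.2, Calb2 at 54.5 and Reln at 79.6 CPM, and the second highest for Gad1 at 138 and Pvalb at 39.5 CPM. The same library had the highest summed level of 7 thalamic markers, 333 CPM against 68.1 to 125 CPM in the other 24. Among these, Slc17a6, the vesicular glutamate transporter of thalamic neurons, was 115 CPM against 5.02 to 28.3 CPM elsewhere, Tcf7l2 92.4 against 9.55 to 21.2 CPM, and Shox2 23.5 against 0 to 2.79 CPM. Gbx2 was near 0 at 0.0823 CPM, and Prkcd was 14.8 CPM, within the 4.84 to 56.1 CPM of the other libraries. Their part in the member values of this library was not tested.

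In TNF-CCI the member was Npy, at 94.8, 5.67, 8.82, 14.4 and 14.9 CPM, beside 7.01, 8.14, 7.65, 19.7 and 9.42 CPM in Vehicle-CCI (1.42 ± 0.60 in log2; unadjusted p = 0.0253 and adjusted p = 1.00 by edgeR). One library, TNF-CCI 1, lay above every other, and without it the difference was 0.08. In TD-CCI the Npy values were 7.49, 14.5, 7.43, 13.4 and 47.4 CPM, again with 1 library, TD-CCI 5, far above the rest. TCF-CCI had no such library, at 4.54, 8.74, 8.27, 11.5 and 10.7 CPM. Over the 25 libraries Npy had the widest range of the 10 members, 20.9-fold from lowest to highest, against 2.83-fold for Cck, 2.88-fold for Vip and 3.26-fold for Gad1.

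TNF-CCI 1 was at the same time the lowest of the 25 libraries for 4 members, Gad1 at 47.6, Vip at 5.44, Cck at 53.1 and Calb2 at 4.07 CPM. Its Gfap, the intermediate filament of reactive astrocytes, was 7938 CPM against 743 to 5789 CPM in the 23 libraries other than TNF-CCI 1 and TD-CCI 5. The part of this in the low values of the 4 markers was not tested. Without TD-CCI 4, TD-CCI 5 and TNF-CCI 1 together, an alternative chosen after seeing the data, Pvalb remained called in the comparison of all CCI groups with sham, at -0.75 (edgeR adjusted p = 0.0385), and no other member passed.

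The other genes of interneurons were counted in the lists given in the processing description, in the comparison of the 4 CCI groups with sham. Among 15 channels, receptors and adhesion proteins of interneurons, 3 fell and 0 rose, beside 3.68% lower and 5.92% in either direction over all genes. Their median log2 fold change was -0.32 beside 0.01. Cnr1, the cannabinoid receptor of cholecystokinin basket cell terminals, fell by 0.87 ± 0.20 on the log2 scale (334 to 184 CPM; edgeR adjusted p = 0.0240) and all 20 CCI libraries lay under the mean of sham. Kcnc2, the Kv3.2 potassium channel that lets interneurons fire fast, fell by 0.55 ± 0.15 (adjusted p = 0.0359), and Kcns3, a modulatory potassium channel subunit of parvalbumin cells, fell by 0.62 ± 0.19 (adjusted p = 0.0494).

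Among 12 other peptides and calcium-binding proteins, 1 fell: Pthlh, a parathyroid hormone-like peptide of parvalbumin cells, was 1.63 CPM in sham and 0.564 CPM after CCI (-1.48 ± 0.32 in log2; edgeR adjusted p = 0.0222). Crhbp, which binds corticotropin-releasing hormone, was next at -0.40 ± 0.18 (adjusted p = 0.170). Among 15 interneuron transcription factors 1 rose and 0 fell, with 3 at an unadjusted p below 0.05, and the median was -0.07. Satb1, a factor of somatostatin and parvalbumin cells, was at -0.33 ± 0.12 (edgeR adjusted p = 0.0965). Each of these lists had 1 call, near the share over all genes.

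Of 11 tested receptors for the member peptides, out of 13 listed, 1 fell and 0 rose, again near the share over all genes. Npy1r, a receptor for neuropeptide Y on granule and pyramidal cells, went from 14.4 to 9.43 CPM (-0.61 ± 0.16 in log2; edgeR adjusted p = 0.0291), with 18 of 20 CCI libraries below every sham library. Npy5r, a second receptor of that peptide, was at -0.52 ± 0.18 (adjusted p = 0.0797). Npy itself gave no call. Of 6 genes of GABA uptake and breakdown 0 passed, with Slc6a13 at 0.57 ± 0.33 and Aldh5a1 at -0.14 ± 0.15 (edgeR; 0 of 6 with an unadjusted p below 0.05). Of 7 genes of reelin signalling 0 passed and 2 had an unadjusted p below 0.05 by edgeR, Dab1, the adaptor of the reelin receptors, at -0.23 ± 0.08 (adjusted p = 0.0894) and Pafah1b1 at -0.32 ± 0.14 (adjusted p = 0.168).

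Markers of all neurons and of excitatory neurons were below 0 throughout. Of 9 pan-neuronal genes, 1 fell (Stmn2, -0.70 ± 0.19; edgeR adjusted p = 0.0366), which is near the share over all genes, and the median was -0.30, with Nefl at -0.58 ± 0.18 (adjusted p = 0.0529). Of 9 excitatory neuron genes, 4 fell, beside 3.68% lower over all genes, and the median was -0.43 beside 0.01: Neurod6 by 1.18 ± 0.19, Neurod1 by 1.44 ± 0.28, Nptx1 by 0.58 ± 0.15 and Camk2a by 0.77 ± 0.22. The value for Pvalb lies within the range of these genes, and a difference between Pvalb and them was not tested.

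Markers of neighbouring regions and other cells give the tissue's makeup. Summed levels in CPM were 68.1 to 107 in sham and 74.9 to 333 after CCI for 7 thalamic genes, 78.0 to 101 and 61.3 to 125 for 6 striatal genes, and 68.2 to 83.4 and 62.5 to 109 for the 5 of 6 neocortical genes in the table. For 5 choroid plexus genes they were 17.6 to 370 and 5.58 to 3910, for 5 oligodendrocyte genes 10355 to 17910 and 7329 to 26046, and for 4 endothelial genes 33.0 to 50.6 and 31.8 to 83.5. Apart from Prkcd of the thalamic list, which rose by 1.36 ± 0.36 (edgeR adjusted p = 0.0327), no gene of these 6 lists passed. Cajal-Retzius cells are a source of Reln, and of 4 genes listed for them 1 was tested, Cxcl14, at -0.10 ± 0.13 (edgeR adjusted p = 0.679). Its sham mean was 91.0 CPM, while those of Lhx1 and Lhx5 were 0.363 and 0.0456 CPM. The level of these cells can therefore not be told from this list.

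None of the list calls held without Vehicle-sham 2, where 14 genes of the whole table passed with edgeR and 0 of them belonged to these lists. The values of that fit were -0.39 for Cnr1, -0.44 for Kcnc2, -0.52 for Kcns3, -0.52 for Pthlh and -0.38 for Npy1r. They were -0.34 for Stmn2, -0.83 for Neurod6, -0.64 for Neurod1, -0.52 for Nptx1, -0.73 for Camk2a and 1.21 for Prkcd. Cnr1, Pthlh, Npy1r, Stmn2 and Neurod1 thus lay much nearer to 0, while Kcns3, Nptx1, Camk2a and Prkcd moved little. The 8 glial markers all remained above 0, at 0.92 to 3.44 with a median of 2.11 beside 2.21 with all libraries. The medians were -0.46 for the excitatory, -0.31 for the pan-neuronal and -0.15 for the channel list. Without Vehicle-sham 2 and 3 together, 0 of 21533 genes passed.

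The genes whose levels followed a member most closely over the 25 libraries were found by Pearson's r of log2 CPM, as a description. For Pvalb they were Hint1 (r = 0.91), Ndufb8, a subunit of mitochondrial complex I (0.91), and Tm2d3 (0.89). For Gad1 they included Cntn1 (0.92) and Ndn (0.91), and for Sst Tubb3, the neuronal tubulin (0.86), Sdc3 (0.86) and Jakmip1 (0.85). The libraries differ in RNA makeup and scaling, which all genes of a library share. Without Vehicle-sham 2 and 3 the r of these 8 genes was 0.85 to 0.88.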

How the data were processed

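Polyadenylated RNA from 25 hippocampus libraries was sequenced by the submitters. Per the submitters' processing notes, STAR, Salmon, featureCounts and DESeq2 were used with the build mRatBN7.2; their versions and the strand setting are not given in the sources used here. Raw counts per gene, with exon coordinates and length, are one table that the authors deposited; there are also 4 tables of a CCI group against control whose columns, per the file headers, include a log2 fold change with its error, a Wald score, a p-value and an adjusted p-value. Columns were matched to libraries by their labels.

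Of 34322 genes, 7 with empty cells were left out. Counts were fitted over all 25 libraries with edgeR 4.0.16 (filterByExpr, TMM, robust quasi-likelihood, Benjamini-Hochberg over 21064 genes, threshold 0.05) in R 4.3.3; adjusted p-values printed without a tool are edgeR's. Ratios (0.5 added to each count) were tested with limma 3.58.1. DESeq2 1.42.0 and limma voom were alternatives. The fits were tested on simulated data with changes of 1.5-, 2- and 4-fold in all CCI libraries. Against sham, edgeR recovered 26.9, 82.1 and 100% of the changed genes in that order. The ratio to Gad1 recovered 1.49, 35.8 and 100%, so changes of small size are often missed. No 2 libraries of a group were alike within sampling noise (chi-square per degree of freedom 24.8 to 732 over 50 pairs).

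Members, gene lists and tests were chosen with earlier results of these data known. The lists hold GABA uptake and breakdown, other interneuron peptides, interneuron transcription factors, interneuron channels and receptors, peptide receptors, reelin signalling, pan-neuronal, excitatory, thalamic, striatal, neocortical, choroid plexus, Cajal-Retzius, glial activation, oligodendrocyte and endothelial genes. From the interneuron and neuron lists the text names the genes that passed, apart from 1 not reported here, or otherwise those of smallest p; Crhbp, Satb1, Npy5r and Nefl were added after their values were seen. Other levels named beside TD-CCI 4 and the high-Npy libraries were chosen after their values were seen.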

Additional observations from a re-analysis of the deposited data

Results flagged for a closer look

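In the 10 markers and 5 groups, 50 sets of 5 libraries were searched for a library far from the other 4 by Dixon's ratio, and 6 were found. For normally distributed values in separate sets, chance alone finds about 1 in 20. The CPM values were not log-transformed and the sets share libraries, so the 6 are not read as more than chance would give. Pvalb in Vehicle-sham 2 was 55.8 CPM against 27.1 to 31.7 CPM in the other sham libraries. Pvalb in TD-CCI 4 was 39.5 CPM against 15 to 21.8 CPM in the rest of its group. Calb2 in TD-CCI 4 was 54.5 CPM against 4.84 to 7.34 CPM. Npy stood apart in 3 groups: 94.8 CPM in TNF-CCI 1 against 5.67 to 14.9 CPM, 47.4 CPM in TD-CCI 5 against 7.43 to 14.5 CPM, and 19.7 CPM in Vehicle-CCI 4 against 7.01 to 9.42 CPM.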

How the results depend on the processing

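With all CCI groups against sham, 1 member was called with DESeq2 size factors, no filter, a 1 CPM filter, DESeq2 and the replicate block, and also without TD-CCI 4, TD-CCI 5 and TNF-CCI 1; 0 were called with limma voom (Pvalb -0.51, adjusted p = 0.0569), the mitochondrial covariate, or Vehicle-sham 2 and 3 left out. Leaving out 1 library gave 0 to 1 members, Pvalb at -0.78 to -0.40 and adjusted p of 0.0231 to 0.346; the call was lost in 14 of 25 cases: without Vehicle-sham 2 or 3, Vehicle-CCI 1, 2 or 5, and any of replicates 1, 3 and 5 of TD-CCI, TCF-CCI and TNF-CCI. Genes called, 1248 as fitted, were 2070 with no filter, 2448 with DESeq2, 1863 with the replicate block, 168 with the covariate, 676 without the 3 CCI libraries, 0 without Vehicle-sham 2 and 3 (cause not tested), and 14 to 2117 leaving out 1 library (14 without Vehicle-sham 2, 2117 without Vehicle-CCI 4). The share called higher was 37.8%, and 49.4% with limma voom, 57.7% with the covariate and 28.7% with no filter.

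The replicate block also called 1 member in TNF-CCI against sham, Pvalb at -0.71 (edgeR adjusted p = 0.0267). The share of all genes called in that comparison with the block was not counted, so this call is not read as particular to Pvalb. Over all CCI groups the block gave Pvalb -0.71 (edgeR adjusted p = 0.00983), and it changed no other count of members. The numbers were not taken to pair libraries, since the labels do not say that libraries of equal number share anything. The codes in the sample titles run in close sequence over the groups for replicate 1 but not for replicate 3, and their meaning is not given. The r of same-numbered deviations ran from -0.29 to 0.41 over 50 pairs (median 0.10, 26 over 0.1). Pairs of different number had a median of -0.02 with 42 of 200 over 0.1, and 10 of 25 libraries correlated best with their own number, a hint from the data that some numbers share something. For the other 6 comparisons of single groups, members called stayed at 0 in every setting. Ratios to Gad1 stayed at 0 members in every setting, and ratios to Slc17a7 gave 2 only without Vehicle-sham 2 and 3, which turned Pvalb to 0.23. The share of all genes that passed against Slc17a7 without those 2 libraries was not counted.

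Reversed signs, all far from passing, were Gad1 (limma voom 0.01, without Vehicle-sham 2 and 3 0.15), Slc32a1 (limma voom -0.20, block -0.09, covariate -0.27, without Vehicle-sham 2 and 3 -0.21, without the 3 CCI libraries -0.20), Calb2 (limma voom 0.00, block -0.05, without the 3 CCI libraries -0.25), Reln (limma voom 0.07, covariate 0.03, without Vehicle-sham 2 and 3 0.17), and Calb2 in TD-CCI against Vehicle-CCI (limma voom -0.02, without the 3 CCI libraries -0.38). Leaving out 1 library gave ranges across 0 for Gad1 (-0.40 to 0.01), Gad2 (-0.23 to 0.11), Slc32a1 (-0.13 to 0.21), Npy (-0.37 to 0.15), Calb2 (-0.26 to 0.31), Reln (-0.12 to 0.05), Calb2 in TD-CCI against Vehicle-CCI (-0.28 to 1.31) and Pvalb to Slc17a7 (-0.41 to 0.02). Of the list calls, Kcnc2 was lost in 8, Kcns3 in 18, Camk2a in 16, Stmn2 in 6, Nptx1 in 4 and Prkcd in 2 of the 25 cases. Fits of only the groups compared give no separate value for the mean of the 4 CCI groups, which uses all libraries.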

Other observations

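The 2 libraries of highest Npy, TNF-CCI 1 and TD-CCI 5, shared other genes, which were looked at after the Npy values were seen. Of 16907 genes with a mean of at least 1 CPM, 104 were above all 23 other libraries in both, and 83 were below all of them in both. No other pair of libraries was counted in this way, so whether these counts are large for a pair is not known. Npy was the only 1 of the 10 markers among the 104. Trh, the precursor of thyrotropin-releasing hormone, was 56.3 CPM in TNF-CCI 1 and 41.1 CPM in TD-CCI 5, against 0.398 to 1.82 CPM in the other 23 libraries. Ptgs2, the inducible cyclooxygenase, was 67.5 and 21.6 CPM against 4.11 to 14.0 CPM, and Nptx2, a secreted pentraxin of active synapses, was 92.9 and 28.6 CPM against 9.90 to 24.5 CPM. The libraries differed in other genes: Arc was 237 and 39.1 CPM against 22 to 108 CPM, Inhba 106 and 12.2 CPM against 5.96 to 19.3 CPM, and Sorcs3 122 and 22.5 CPM against 12.3 to 25.2 CPM, so TD-CCI 5 lay within the others for all 3. Sst, which hilar cells often make together with Npy, was 7.56 CPM in TNF-CCI 1 and 27 CPM in TD-CCI 5, near the bottom and at the top of the 25 libraries.

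Within its own group, ranked by the log2 ratio to the median of the other 4 libraries, Npy was the 25th highest of 16907 genes in TNF-CCI 1, at 3.02, and the 15th highest in TD-CCI 5, at 2.17. Calb2 was the 10th highest in TD-CCI 4, at 3.10. In Vehicle-sham 2, Pvalb, at 0.94, and Gad1, at 0.97, ranked 1853rd and 1767th, so many genes were further above the other sham libraries there. Tac1, the substance P precursor, was 21.2 CPM in TD-CCI 4 against 1.00 to 4.91 CPM in the other 24 libraries.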
